A study of Homo sapiens with 32 samples.

Results

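Beta-catenin, its destruction complex and its nuclear partners were described through 10 genes, CTNNB1, APC, AXIN1, GSK3A, GSK3B, CSNK1A1, BTRC, TCF7L1, TCF7L2 and BCL9, taken by name for their place in the pathway. They are 10 of the 35238 genes in the deposited expression table, all 10 were found in it, and all 10 were among the 17011 genes that passed the filter on low values (above 1 CPM, reads scaled to a library sum of 1000000, in at least 2 libraries).

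Beta-catenin, the product of CTNNB1, links cadherins to actin at cell junctions and also carries Wnt signals into the nucleus. Without Wnt, the scaffolds AXIN1 and APC hold it beside the kinases CSNK1A1 (casein kinase 1 alpha), GSK3A and GSK3B, and the phosphorylated protein is recognised by BTRC (beta-TrCP), the substrate arm of an SCF ubiquitin ligase, and destroyed. Stabilised beta-catenin binds TCF factors on DNA; BCL9 joins it to Pygopus there, and TCF7L1 is known mainly as a repressor of Wnt targets, TCF7L2 as their main effector in many epithelia. The serines that the complex phosphorylates lie in exon 3 of CTNNB1 and are recurrently substituted in endometrioid endometrial carcinoma, which acts on the protein's stability; the present measurements are of messenger RNA.

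The libraries came from 4 human endometrial cancer cell lines grown in culture. Ishikawa is labelled CTNNB1-wildtype, and Ishikawa-S33Y, SNGM and HEC265 are labelled CTNNB1-mutated; the name of the second line refers to the S33Y substitution in beta-catenin, and how it was introduced and whether the line is a clone are not given in the sources used here. Each line received vehicle (0.1% DMSO), paclitaxel, a microtubule-stabilising taxane, SM08502, an inhibitor of the CDC-like kinases that phosphorylate splicing factors, or both drugs, for 24 h, with 2 cultures per group, 16 groups and 32 libraries. Ishikawa, Ishikawa-S33Y, SNGM and HEC265 were given paclitaxel at 11, 6, 11.7 and 5.6 nM and SM08502 at 80, 85, 350.7 and 149 nM. Line, genotype, dose and RNA input (350 ng for Ishikawa and 500 ng for the others) cannot be told apart. Nothing says that the duplicate cultures were separate experiments, so p-values measure only the spread between these samples, which may be technical.

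The sequences before the start sites of CTNNB1 and of both TCF genes are shown because CTNNB1 is the node of the pathway. In the fit to all lines together, TCF7L1 and TCF7L2 were the members with drug effects past the threshold within a line. Fits to a line alone also called other members, as given below. They are the 250 bases upstream of a RefSeq start on the plus strand of GRCh38.p14, in lower case, with every match to CTTTG or its complement CAAAG, the core of the TCF/LEF motif, in capitals. CTNNB1 is chr3:41199255-41199504, TCF7L1 is chr2:85133142-85133391, TCF7L2 start A is chr10:112949997-112950246 at the upstream end of the gene, and TCF7L2 start B is chr10:113126383-113126632, upstream of a start inside it.
CTNNB1: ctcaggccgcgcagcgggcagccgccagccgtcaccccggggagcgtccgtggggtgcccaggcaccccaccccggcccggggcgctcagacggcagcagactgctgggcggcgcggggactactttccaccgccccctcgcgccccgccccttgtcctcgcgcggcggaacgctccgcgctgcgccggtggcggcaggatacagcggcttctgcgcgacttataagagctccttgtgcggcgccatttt
TCF7L1: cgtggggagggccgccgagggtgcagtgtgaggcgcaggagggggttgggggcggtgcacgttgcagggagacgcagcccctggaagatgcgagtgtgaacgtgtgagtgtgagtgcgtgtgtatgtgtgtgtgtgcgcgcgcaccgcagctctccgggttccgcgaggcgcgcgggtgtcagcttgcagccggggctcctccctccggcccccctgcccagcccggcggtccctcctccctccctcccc
TCF7L2 start A: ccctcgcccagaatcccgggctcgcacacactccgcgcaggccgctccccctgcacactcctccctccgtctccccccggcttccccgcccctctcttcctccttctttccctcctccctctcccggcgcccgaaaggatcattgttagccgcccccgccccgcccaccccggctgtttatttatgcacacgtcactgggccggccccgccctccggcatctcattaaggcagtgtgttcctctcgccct
TCF7L2 start B: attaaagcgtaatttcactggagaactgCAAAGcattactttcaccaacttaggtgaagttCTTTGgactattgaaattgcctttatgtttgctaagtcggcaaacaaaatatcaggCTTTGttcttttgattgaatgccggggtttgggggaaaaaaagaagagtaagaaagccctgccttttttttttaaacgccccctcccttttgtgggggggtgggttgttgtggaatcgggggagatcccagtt

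The longer motif CTTTGAT, searched on both strands, was in 0 of the 13 windows that RefSeq lists for 9 of the members, against 2.26% of 35116 windows of the same length genome-wide. BTRC has no entry. The core CTTTG, which the longer motif contains, was in 2 of the 13 windows, both upstream of internal starts of TCF7L2, against 42.1% of all windows. These are matches of letters and not measured binding.

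In the RefSeq annotation of GRCh38.p14 the genes lie on chromosome 3 (CTNNB1, 41199505 to 41240443, and GSK3B, 119821321 to 120094447), chromosome 5 (APC, 112707498 to 112846239, and CSNK1A1, 149492982 to 149551439), chromosome 16 (AXIN1, 287440 to 352723), chromosome 19 (GSK3A, 42230190 to 42242602), chromosome 10 (BTRC, 101354048 to 101557313, and TCF7L2, 112950247 to 113167678), chromosome 2 (TCF7L1, 85133392 to 85310387) and chromosome 1 (BCL9, 147541501 to 147626216). Another gene, among them small RNAs and pseudogenes, overlaps 7 of these genes. CSNK1A1 has 3 pseudogenes by symbol, BTRC 1 and BCL9 1, and the strand of counting is not given in the sources used here, so reads could be shared there.

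Depth was 13.03 to 34.1 M reads in 30 libraries, and replicate 2 of the combination was shallow in SNGM (1.61 M) and Ishikawa-S33Y (2.99 M). Of 8 epithelial markers, 7 or 8 were above 10 CPM in at least 1 library of each line. Of 10 markers of fibroblasts, endothelium and immune cells, COL1A1 was at 707 to 1158 CPM in Ishikawa-S33Y and 27.1 to 189 CPM in Ishikawa, CD68 at 3.30 to 50.4 CPM over all lines, and the summed level was 719 to 1174 CPM in Ishikawa-S33Y, 54.7 to 215 in Ishikawa, 27.9 to 46.9 in SNGM and 17.6 to 58.8 in HEC265. The other fibroblast markers in Ishikawa-S33Y were COL1A2 at 0.722 to 2.67, DCN at 0.334 to 1.03, LUM at up to 0.103 and PDGFRB at up to 0.148 CPM. VWF, an endothelial marker, was at 4.35 to 8.34 CPM there and 0.611 to 1.95 in Ishikawa. A length score was computed per library from log2(CPM + 1) as the average of 52 long-transcript genes less the average of 79 genes for ribosomal proteins. It was -3.26 to -1.60 in Ishikawa, -1.85 to -1.22 in Ishikawa-S33Y, -1.17 to -0.70 in HEC265 and -0.81 to -0.06 in SNGM, lowest in Ishikawa and unequal between its duplicates.

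CTNNB1 itself was lowest in Ishikawa-S33Y. On vehicle its level was 409 and 414 CPM in HEC265, 266 and 213 in SNGM, 214 and 207 in Ishikawa-S33Y and 357 and 313 in Ishikawa. The line labelled wild type thus lay between the labelled mutants, below HEC265 and above the others. Over all treatments the 8 libraries of Ishikawa ranged from 259 to 357 CPM and the 8 of Ishikawa-S33Y from 205 to 232, without overlap. On the log2(CPM + 1) scale used for all differences here, Ishikawa-S33Y differed from Ishikawa by -0.67 (SE 0.12, 95% interval -0.91 to -0.42, adjusted p = 9.09e-05, limma, n = 2 each), a ratio of means of 0.628. CPM is a share of the counted reads, and less RNA per cell and fewer cells with it cannot be told apart in bulk RNA. SNGM was also lower than Ishikawa (-0.49, SE 0.12, adjusted p = 0.00102) and HEC265 higher (0.30, SE 0.12, adjusted p = 0.0319). Of the 6 pairs of lines, 5 passed an adjusted p under 0.05 for CTNNB1, and SNGM against Ishikawa-S33Y did not (0.18, 95% interval -0.07 to 0.42). The call of Ishikawa-S33Y against Ishikawa held under all 44 alternatives, whereas the length score as a covariate ended those of SNGM (-0.47, adjusted p = 0.0624) and HEC265 (0.32, adjusted p = 0.144). The HEC265 call was also lost under 4 other alternatives, quantile normalization (0.14, adjusted p = 0.209) and leaving out replicate 2 of the Ishikawa vehicle or either HEC265 vehicle library, with adjusted p up to 0.240. The median of all tested genes was -0.13 in SNGM and -0.17 in HEC265 against Ishikawa, and after re-centring each library on its median the CTNNB1 differences were -0.35 and 0.51.

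Among the 10 members, 6 passed the test for Ishikawa-S33Y against Ishikawa on vehicle, 5 higher and 1 lower, where 48.3% of all tested genes passed, 20% higher and 28.2% lower. The median difference of the members was 0.39 and that of all tested genes -0.05. In SNGM against Ishikawa 6 members passed (background 66.8%), in HEC265 against Ishikawa 6 (63.3%), in SNGM against Ishikawa-S33Y 6 (60.8%), in HEC265 against Ishikawa-S33Y 5 (58%) and in HEC265 against SNGM 4 (54.9%). Being called between lines was therefore about as frequent among the members as among all genes, with 33 of 60 member tests called. Some markers of other cell types, in unlike directions, and the length score given above differ between these lines too. The part of the markers in these differences was not tested.

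**Figure D1:**
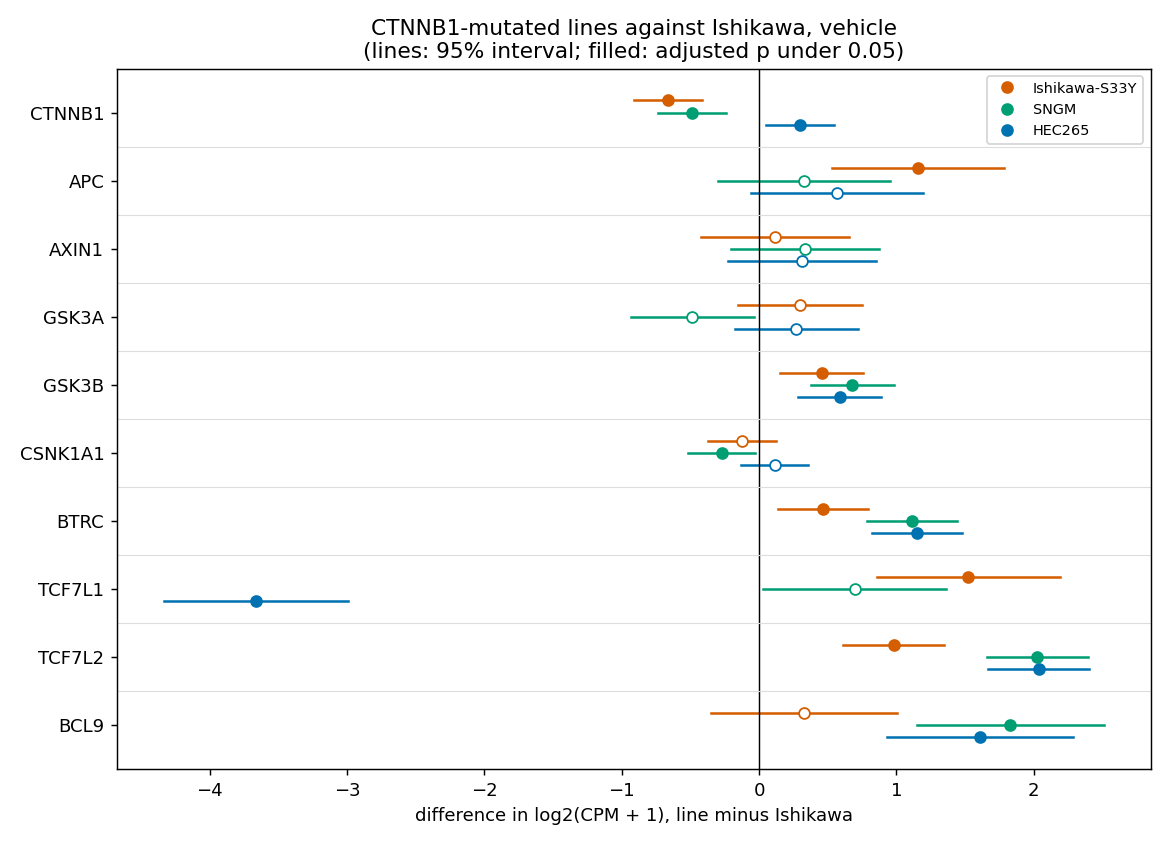
Difference of each mutated line from Ishikawa on vehicle, in log2(CPM + 1), for the 10 genes; points are limma estimates, bars their 95% intervals, and filled points passed an adjusted p under 0.05. APC, AXIN1, GSK3B, BTRC, TCF7L2 and BCL9 lie to the right of 0 in all 3 lines, and of these GSK3B, BTRC and TCF7L2 are filled in each. CTNNB1 lies to the left in Ishikawa-S33Y and SNGM only, and TCF7L1 in HEC265 is the farthest from 0 at -3.67.

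Of the scaffolds, APC was higher in Ishikawa-S33Y than in Ishikawa and SNGM, and no pair of lines passed for AXIN1. APC on vehicle was 71.4 and 75.6 CPM in HEC265, 60.9 and 63.3 in SNGM, 113 and 109.8 in Ishikawa-S33Y and 41.0 and 59.3 in Ishikawa. Only the Ishikawa-S33Y duplicates were above 100 CPM, and those of Ishikawa were the lowest and the farthest apart. APC was higher in Ishikawa-S33Y than in Ishikawa by 1.16 (SE 0.30, 95% interval 0.53 to 1.78, adjusted p = 0.00308, limma). This call ended with the length score as a covariate (0.05, adjusted p = 0.858) and without replicate 1 of the Ishikawa vehicle (0.90, adjusted p = 0.0593). Ishikawa-S33Y was also above SNGM (SNGM minus Ishikawa-S33Y -0.83, adjusted p = 0.0209), a call that was lost without any of the 4 libraries compared, the adjusted p then being at most 0.0798. In the fit to all lines HEC265 was not distinguished from Ishikawa-S33Y (-0.59, 95% interval -1.22 to 0.03, adjusted p = 0.0980). In a fit to the compared lines alone the same difference passed (SE 0.05, adjusted p = 1.33e-07, limma), where 70.6% of all genes passed. Over all treatments APC ranged from 71.4 to 84.1 CPM in HEC265 and from 109.8 to 176 in Ishikawa-S33Y, without overlap. AXIN1, the scaffold present in limiting amount in the classical model, had vehicle means of 27.4 ± 0.294 CPM in HEC265, 27.9 ± 3.45 in SNGM, 23.8 ± 0.235 in Ishikawa-S33Y and 21.9 ± 1.93 in Ishikawa (SD, n = 2), and 0 of its 6 pairs passed the test. The widest of its differences, SNGM minus Ishikawa, was 0.33 with a 95% interval of -0.21 to 0.87.

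Of the kinases, GSK3B was lower in Ishikawa than in each other line. GSK3B on vehicle was 266 and 251 CPM in HEC265, 274 and 277 in SNGM, 240.0 and 232 in Ishikawa-S33Y and 159.9 and 185 in Ishikawa, so both Ishikawa libraries lay under all 6 others. It was higher than in Ishikawa by 0.46 in Ishikawa-S33Y (SE 0.15, adjusted p = 0.0132), 0.68 in SNGM (adjusted p = 3.12e-04) and 0.59 in HEC265 (adjusted p = 0.00134). The length score as a covariate turned these differences to -0.02, -0.17 and -0.09, none of them past the threshold. The call in Ishikawa-S33Y was also lost in a fit to these 2 lines alone (adjusted p = 0.0690), without replicate 1 of the Ishikawa vehicle (0.131) and without replicate 1 of the Ishikawa-S33Y vehicle (0.0716).

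GSK3A, its close paralogue, was instead lowest in SNGM, with 50.7 and 56.8 CPM on vehicle, against 95.6 and 90.9 in Ishikawa-S33Y, 91.5 and 91.6 in HEC265, and 72.6 and 78.8 in Ishikawa. SNGM was lower than Ishikawa-S33Y (-0.78, SE 0.22, adjusted p = 0.00345) and HEC265 was higher than SNGM (0.76, SE 0.22, adjusted p = 0.00508), and both calls held under all 44 alternatives. CSNK1A1, the priming kinase, had the narrowest range over lines after AXIN1, from 276 ± 31.8 CPM in SNGM through 305 ± 11.1 in Ishikawa-S33Y and 333 ± 26.3 in Ishikawa to 359.6 ± 4.80 in HEC265 (SD, n = 2). HEC265 was above SNGM (0.39, SE 0.12, adjusted p = 0.00837, lost without replicate 2 of the SNGM vehicle at adjusted p = 0.130). The call of SNGM below Ishikawa (-0.27, adjusted p = 0.0468) was lost under 25 of 44 alternatives, with adjusted p from 0.00162 to 0.413.

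BTRC, which recognises phosphorylated beta-catenin, was lowest in Ishikawa, intermediate in Ishikawa-S33Y and highest in SNGM and HEC265. On vehicle it was 49.8 and 46.0 CPM in HEC265, 48.7 and 44.9 in SNGM, 31.4 and 27.7 in Ishikawa-S33Y and 21.5 and 20.7 in Ishikawa. The libraries fell into 3 separate levels, with SNGM and HEC265 together at the top (difference 0.03, 95% interval -0.29 to 0.36). All other pairs were called: BTRC exceeded Ishikawa by 1.15 in HEC265 (SE 0.16, adjusted p = 1.63e-06), 1.11 in SNGM (adjusted p = 2.16e-06) and 0.47 in Ishikawa-S33Y (adjusted p = 0.0179). The HEC265 call held under all 44 alternatives. With the length score as a covariate the SNGM value was 0.43 (adjusted p = 0.115) and the Ishikawa-S33Y value 0.09 (adjusted p = 0.729). The Ishikawa-S33Y call was also lost in a fit to these 2 lines alone (adjusted p = 0.0687), without replicate 1 (0.0554) or replicate 2 (0.0802) of the Ishikawa vehicle, and without replicate 1 of the Ishikawa-S33Y vehicle (0.138).

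The nuclear factors varied most between lines. TCF7L1 was 48.3 and 43.1 CPM on vehicle in Ishikawa-S33Y, 18.9 and 33.6 in SNGM, 12.3 and 18.8 in Ishikawa, and 0.178 and 0.386 in HEC265. HEC265 was thus nearly without TCF7L1 reads, 4 and 10 of them in the vehicle libraries, and at most 0.908 CPM in any of its 8 libraries. The ratio of the highest to the lowest mean, 162, rests on those few reads. HEC265 differed from Ishikawa by -3.67 (SE 0.32, 95% interval -4.33 to -3.00, adjusted p = 1.85e-09), from SNGM by -4.36 and from Ishikawa-S33Y by -5.19, and the 3 calls held under all 44 alternatives. The sizes depend on the pseudocount at so few reads: they were -5.38, -6.11 and -6.96 with a pseudocount of 0.1, and the lowest values over the alternatives were -5.70, -6.45 and -7.35. Ishikawa-S33Y was higher than Ishikawa by 1.52 (SE 0.32, adjusted p = 5.11e-04), which became 0.48 (adjusted p = 0.153) with the length score as a covariate. SNGM differed from Ishikawa-S33Y by -0.83 (adjusted p = 0.0304), a call lost without replicate 1 of the SNGM vehicle (-0.43, adjusted p = 0.350) and under 4 other alternatives, and it was not distinguished from Ishikawa (0.69, adjusted p = 0.0621). With the length score as a covariate that last value was -1.16 (adjusted p = 0.00968).

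TCF7L2 was ordered like BTRC. It was 50.6 and 48.0 CPM on vehicle in HEC265, 43.4 and 55.1 in SNGM, 24.0 and 22.4 in Ishikawa-S33Y and 9.87 and 12.8 in Ishikawa. Every mutated line lay above Ishikawa without overlap, by 0.98 in Ishikawa-S33Y (SE 0.18, 95% interval 0.61 to 1.35, adjusted p = 1.10e-04), 2.02 in SNGM (adjusted p = 1.59e-09) and 2.04 in HEC265 (adjusted p = 1.62e-09). These 3 calls held under all 44 alternatives, with values down to 0.40, 0.99 and 1.21. With CTNNB1, TCF7L2 was 1 of the 2 members whose call between Ishikawa-S33Y and Ishikawa was never lost. SNGM and HEC265 did not differ beyond their spread (0.01, 95% interval -0.36 to 0.38).

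BCL9, the adaptor between beta-catenin and Pygopus, was 118 and 112 CPM on vehicle in HEC265, 120.2 and 151 in SNGM, 47.5 and 46.2 in Ishikawa-S33Y and 34.2 and 40.3 in Ishikawa. Ishikawa and Ishikawa-S33Y lay under 50 CPM, SNGM and HEC265 above 100. BCL9 exceeded Ishikawa by 1.83 in SNGM (SE 0.33, adjusted p = 4.16e-05) and 1.61 in HEC265 (adjusted p = 1.94e-04), but the length score as a covariate turned these to -0.32 (adjusted p = 0.276) and -0.11 (adjusted p = 0.674). Against Ishikawa-S33Y, BCL9 was higher by 1.50 in SNGM (adjusted p = 4.23e-04) and 1.28 in HEC265 (adjusted p = 0.00191). These calls held under all 44 alternatives, with values down to 0.56 in SNGM and 0.77 in HEC265. The part of the length score in them was not tested further. Ishikawa-S33Y and Ishikawa were not distinguished (0.33, 95% interval -0.35 to 1.01).

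**Figure D2:**
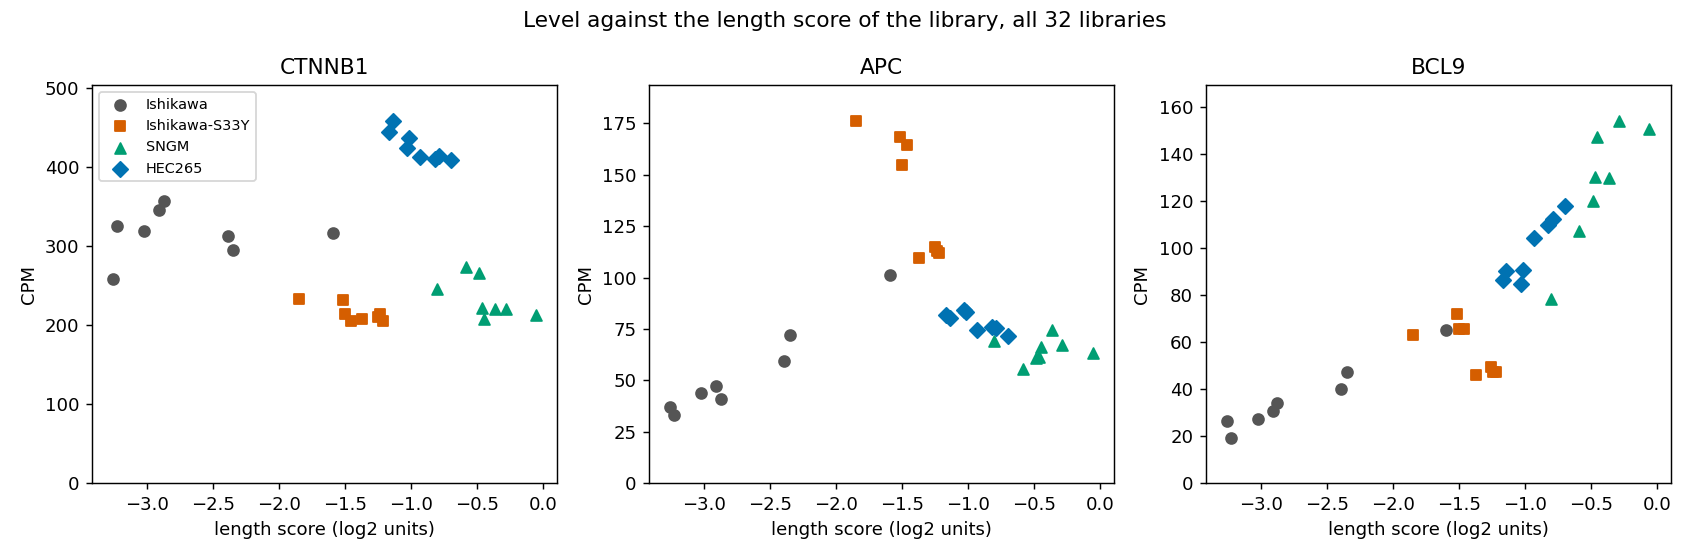
CPM of CTNNB1, APC and BCL9 in every library (vertical axes from 0) against the length score of the library in log2 units (horizontal axes), by line. In Ishikawa, APC and BCL9 are higher in the libraries with a higher score and reach 101 and 65.4 CPM in replicate 1 of paclitaxel, whose score is -1.60, whereas CTNNB1 stays between 259 and 357 CPM.

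The duplicates of Ishikawa show the same pattern within a treatment. Replicates 1 and 2 of paclitaxel had length scores of -1.60 and -3.26 and held 101 and 37.3 CPM of APC, 65.4 and 26.5 of BCL9, 91.9 and 57.1 of GSK3A, 219 and 137 of GSK3B, and 20.3 and 10.2 of TCF7L1. Those of SM08502 had -2.35 and -3.23 and held 71.9 and 33.4 CPM of APC, 47.5 and 19.3 of BCL9, and 90.3 and 47.4 of GSK3A. For CTNNB1 the same duplicates were at 317 and 259, and at 295 and 326 CPM. The spread of Ishikawa enters the estimate that all lines share in the fit, so drug effects in Ishikawa-S33Y and HEC265 were tested with larger standard errors than in fits to those lines alone. In Ishikawa the reverse occurred: for SM08502 the SE of TCF7L1 was 0.41 in a fit to that line alone and smaller in the fit to all lines. For SM08502 in Ishikawa 15.2% of all tested genes passed in the fit to all lines and 0.282% in the fit alone. In SNGM the shares were 7.86% and 0.735%. Calls in these lines rest on the shared spread. Fits to a line alone are not given for genes outside the 10 members.

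The drug effects asked whether inhibition of the CDC-like kinases moved these transcripts. In SM08502 against vehicle within each line, in the fit to all lines, 1 of 40 member tests passed, TCF7L2 in Ishikawa-S33Y, and 5 of 40 had an unadjusted p under 0.05. Among all tested genes 14.7% passed in HEC265, 7.86% in SNGM, 29.1% in Ishikawa-S33Y and 15.2% in Ishikawa. The member estimates ran from -0.82 to 0.54, and the median over members was 0.06, 0.06, 0.28 and -0.10 in that order of lines, against 0.07, 0.00, 0.11 and 0.00 over all tested genes.

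TCF7L2 in Ishikawa-S33Y was 24.0 and 22.4 CPM on vehicle, 25.5 and 27.8 with paclitaxel, 34.1 and 34.2 with SM08502, and 32.7 and 30.8 with the combination. All 4 libraries with SM08502 were above the 4 without it. The rise with SM08502 was 0.54 (SE 0.18, 95% interval 0.17 to 0.91, adjusted p = 0.0259, limma, n = 2 each), a ratio of means of 1.47. It was 0.49 after each library was re-centred on its median (adjusted p = 0.0147). Leaving out any of the 4 libraries compared ended the call, with an adjusted p of at most 0.140, and the other 40 alternatives kept it. TCF7L2 differed from vehicle by 0.03 in Ishikawa, 0.08 in SNGM and -0.04 in HEC265, none past the threshold.

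TCF7L1 had negative estimates for SM08502 in 3 lines. In Ishikawa it was 12.3 and 18.8 CPM on vehicle, 20.3 and 10.2 with paclitaxel, 11.4 and 5.84 with SM08502, and 7.02 and 8.51 with the combination, so its groups overlapped. In Ishikawa-S33Y it was 48.3 and 43.1, 40.3 and 44.4, a mean of 30.7 ± 1.04 (SD, n = 2), and 24.1 and 25.7 CPM in the same order, and all 4 libraries with SM08502 were below the 4 without. The SM08502 differences were -0.82 in Ishikawa (SE 0.32, 95% interval -1.49 to -0.15, adjusted p = 0.0902) and -0.56 in Ishikawa-S33Y (95% interval -1.23 to 0.11, adjusted p = 0.208), and neither passed the test. They were -0.09 in SNGM and 0.34 in HEC265, where the level stayed under 1 CPM.

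The combination against vehicle gave 2 calls among 40, both for TCF7L1: -0.89 in Ishikawa (SE 0.32, adjusted p = 0.0498) and -0.85 in Ishikawa-S33Y (SE 0.32, 95% interval -1.52 to -0.18, adjusted p = 0.0391), a ratio of means of 0.546. All tested genes passed at 19.5% in HEC265, 18.4% in SNGM, 42% in Ishikawa-S33Y and 22.8% in Ishikawa. The Ishikawa call was lost under 27 of 44 alternatives, with adjusted p up to 0.351. The Ishikawa-S33Y call was lost under 8, among them without either vehicle library (adjusted p = 0.160 without replicate 1 and 0.0899 without replicate 2), without either combination library (0.122 without replicate 1 and 0.0991 without replicate 2, the shallow library) and without the 2 shallow libraries of the series (0.0648). Averaged over the 4 lines TCF7L1 fell by 0.50 with the combination (SE 0.16, adjusted p = 0.0141) and CSNK1A1 rose by 0.15 (SE 0.06, adjusted p = 0.0428), where 49.1% of genes passed. The TCF7L1 estimates behind that mean were of unequal sign, -0.68 in SNGM (adjusted p = 0.147), where replicate 2 of the combination held 18 reads of the gene, and 0.43 in HEC265 (adjusted p = 0.410, and 0.0323 in the fit to HEC265 alone). The TCF7L1 mean was lost with voom on recovered reads (-0.22 with library totals, adjusted p = 0.568, and -0.34 with median-of-ratios factors, 0.347), with a pseudocount of 0.1 (-0.35, adjusted p = 0.143), with the length score as a covariate (-0.23, adjusted p = 0.0786), without the shallow libraries (-0.40, adjusted p = 0.0542) and without replicate 2 of the SNGM vehicle (-0.40, adjusted p = 0.0508), and the CSNK1A1 mean under 26 of 43 alternatives.

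The level of TCF7L2 relative to TCF7L1 was examined after these values were seen, as a description without a test. CPM is not corrected for length, so only its change is read. In Ishikawa the ratio was 0.506 to 0.804 in the 4 libraries without SM08502 and 1.29 to 1.73 in the 4 with it. In Ishikawa-S33Y it was 0.496 to 0.632 and 1.09 to 1.35. There each of the genes was already separated on its own, in opposite directions, so the ratio had to separate too. How often other pairs of genes separate in this way was not tested. In SNGM it was 1.64 to 2.81 without and 2.04 to 4.89 with SM08502, which overlap, the highest being the shallow library with 18 reads of TCF7L1. In HEC265 the ratio went the other way, 94.75 to 284 without and 53.3 to 84.8 with SM08502. It rests there on 4 to 19 TCF7L1 reads per library, too few to read a change from.

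**Figure D3:**
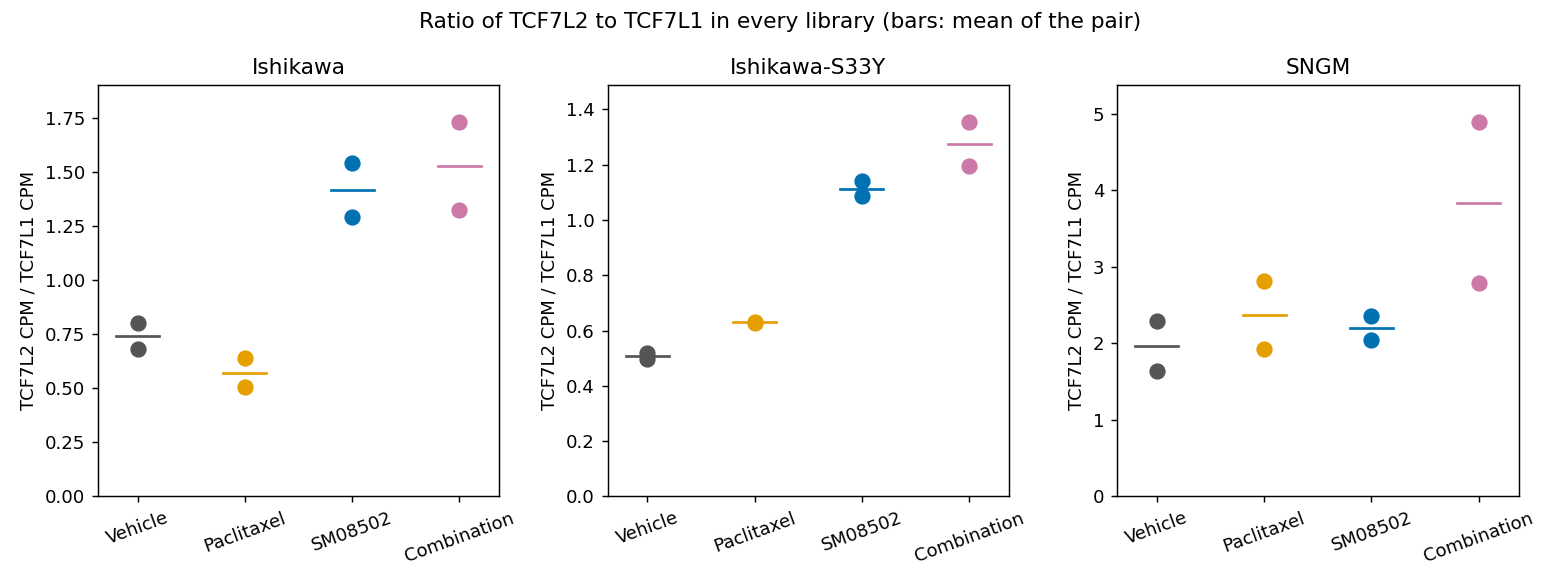
Ratio of TCF7L2 CPM to TCF7L1 CPM in every library of Ishikawa, Ishikawa-S33Y and SNGM by treatment; points are libraries, bars the mean of each duplicate, and each panel has its own vertical axis from 0. The SM08502 and combination libraries lie above the vehicle and paclitaxel libraries in Ishikawa and Ishikawa-S33Y, while the groups overlap in SNGM.

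CTNNB1 did not pass a drug test within a line in the fit to all lines. In fits to a line alone it passed for SM08502 in HEC265 (0.12, adjusted p = 0.0439) and for the combination in Ishikawa-S33Y (0.14, adjusted p = 0.0379). In the fit to all lines the SM08502 differences were 0.12 in HEC265 (95% interval -0.13 to 0.36), -0.15 in SNGM (-0.39 to 0.10), -0.01 in Ishikawa-S33Y (-0.25 to 0.24) and -0.11 in Ishikawa (-0.35 to 0.14), so no interval reached beyond 0.36 upward or -0.39 downward. In HEC265 the libraries were 409 and 414 CPM on vehicle, 413 and 409 with paclitaxel, 437 and 458 with SM08502, and 444 and 424 with the combination, all 4 with SM08502 being above the 4 without. In Ishikawa-S33Y the 2 combination libraries, at 232 CPM each, stood above the other 6, which lay at 205 to 214.

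BTRC was the member whose SM08502 effect passed when averaged over the lines. Its differences were 0.28 in HEC265, 0.20 in SNGM, 0.33 in Ishikawa-S33Y and 0.18 in Ishikawa, none called within a line in the fit to all lines. In limma fits to a line alone BTRC passed in HEC265 (adjusted p = 0.0086) and Ishikawa-S33Y (adjusted p = 0.0199), where 41.3% and 40.3% of all genes passed. The mean of the differences was 0.25 (SE 0.08, 95% interval 0.08 to 0.41, adjusted p = 0.0164), where 38.5% of all tested genes passed. The mean stayed called under all 43 alternatives, with values from 0.17 to 0.31 and adjusted p from 3.74e-04 to 0.0471. In HEC265 BTRC was 49.8 and 46.0 CPM on vehicle and 57.1 and 59.7 with SM08502, and in Ishikawa-S33Y 31.4 and 27.7 became 38.8 and 35.9. With the combination the Ishikawa-S33Y libraries were at 30.1 CPM each, within the vehicle values. For the combination averaged over the lines BTRC did not pass.

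The other destruction complex members did not pass for SM08502 within a line in the fit to all lines. APC in Ishikawa-S33Y was 113 and 109.8 CPM on vehicle, 112 and 115 with paclitaxel, 165 and 155 with SM08502, and 176 and 169 with the combination, the 4 libraries with SM08502 above the 4 without, and the SM08502 difference was 0.52 (95% interval -0.11 to 1.14, adjusted p = 0.212). GSK3A in HEC265 was 91.5 and 91.6 CPM on vehicle and 122 and 124 with SM08502 (0.42, 95% interval -0.03 to 0.87, adjusted p = 0.228). GSK3B in SNGM was 274 and 277 CPM on vehicle and 343 and 356 with SM08502 (0.34, 95% interval 0.04 to 0.64, adjusted p = 0.186). For GSK3B in SNGM too the libraries with SM08502 were all above those without. AXIN1 had SM08502 differences from -0.29 in Ishikawa to -0.02 in SNGM.

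BCL9 had estimates of opposite sign in 2 lines, neither past the threshold in the fit to all lines and both past it in fits to the line alone (adjusted p = 0.00214 in Ishikawa-S33Y and 0.00159 in HEC265). In Ishikawa-S33Y it was 47.5 and 46.2 CPM on vehicle and 65.8 in each SM08502 library (0.48, 95% interval -0.20 to 1.16, adjusted p = 0.290). In HEC265 it was 118 and 112 CPM on vehicle and 90.7 and 90.5 with SM08502 (-0.34, 95% interval -1.02 to 0.34, adjusted p = 0.603). The length score was -1.24 and -1.38 on vehicle and -1.46 or below with SM08502 in Ishikawa-S33Y, and -0.70 and -0.79 against -1.02 and -1.14 in HEC265, lower with the drug in both lines.

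**Figure D4:**
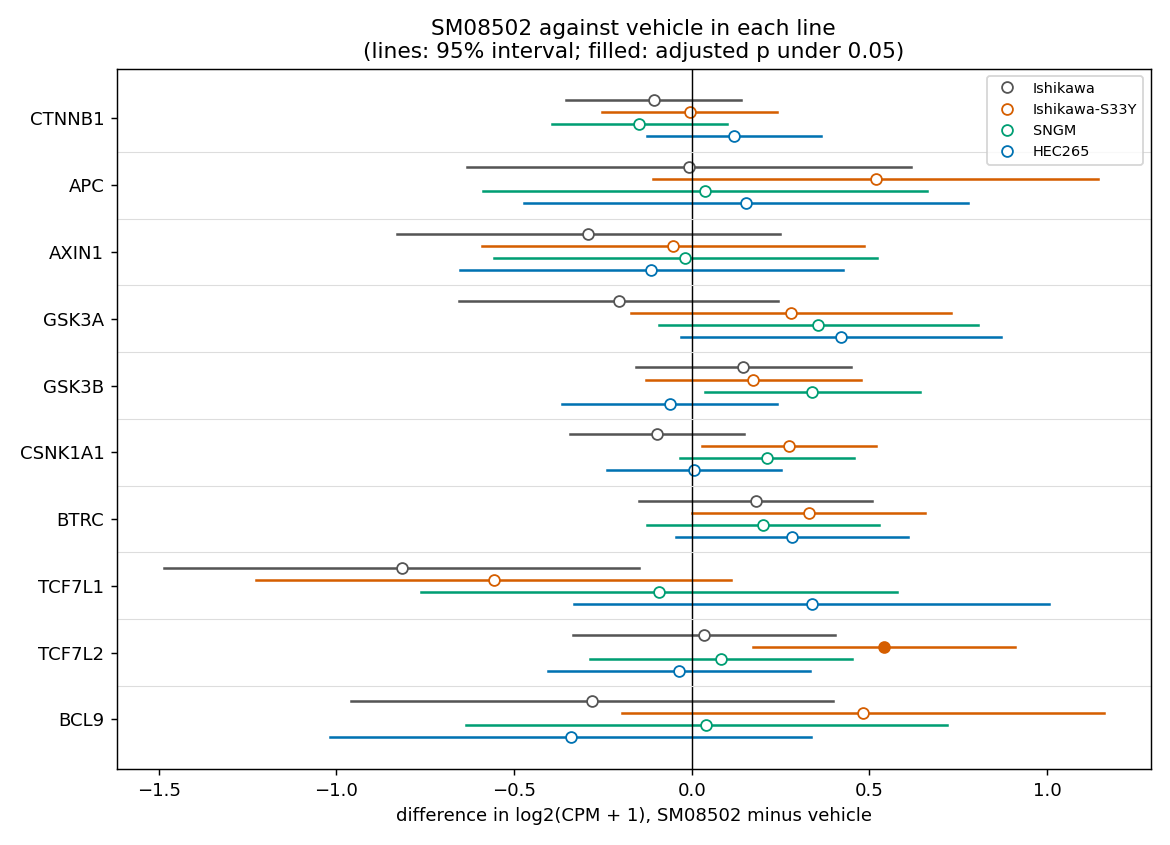
Difference of SM08502 from vehicle in each line, in log2(CPM + 1), for the 10 genes; points are limma estimates, bars their 95% intervals, and the filled point passed an adjusted p under 0.05. TCF7L2 in Ishikawa-S33Y, at 0.54, is the filled point, and the widest spread between lines is that of TCF7L1, from -0.82 in Ishikawa to 0.34 in HEC265.

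Counting overlap alone, all 4 libraries with SM08502 were above the 4 without for 5 members in Ishikawa-S33Y (APC, BCL9, CSNK1A1, GSK3B and TCF7L2) and below for TCF7L1, where 32.3% and 22.4% of all tested genes were separated that way. In HEC265, APC, BTRC, CTNNB1, GSK3A and TCF7L1 were above and AXIN1 and BCL9 below (30.4% and 18.4%). TCF7L1 held only 4 to 19 reads per library there. In SNGM GSK3B was above and 0 members below (12% and 10.1%), and in Ishikawa 0 of 10 members were separated (12% and 8.51%).

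Fitted to the samples of a line alone, whose duplicates set the spread, the counts were different. In Ishikawa-S33Y 8 of 10 members then passed for SM08502, APC, BCL9, BTRC, CSNK1A1, GSK3A, GSK3B and TCF7L2 higher and TCF7L1 lower, with 40.3% of all genes passing. In HEC265 5 passed, APC, BTRC, CTNNB1 and GSK3A higher and BCL9 lower (41.3%). In Ishikawa 0 passed (0.282%) and in SNGM 0 (0.735%). For the combination the counts were 7 in Ishikawa-S33Y (51.7%), 5 in HEC265 (47.2%), 0 in Ishikawa (2.13%) and 0 in SNGM (3.36%). The estimates are the same as in the fit to all lines, and only the spread differs.

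Whether the lines differed in their response was tested directly. The test that the 4 SM08502 effects are equal passed for 0 of 10 members, with 0 at an unadjusted p under 0.05, against 12.4% of all tested genes (limma), and limma voom on recovered reads also called 0. The SM08502 effect in Ishikawa-S33Y minus that in Ishikawa passed for 0 of 10, with 1 at an unadjusted p under 0.05, against 2.43%. In a fit to Ishikawa-S33Y and HEC265 alone, the effect in HEC265 minus that in Ishikawa-S33Y passed for 5 members, BCL9 (-0.82, SE 0.09, adjusted p = 4.35e-05), TCF7L2 (-0.58, adjusted p = 0.00125), APC (-0.36, adjusted p = 0.00228), GSK3B (-0.24, adjusted p = 0.0388) and TCF7L1 (0.89, adjusted p = 0.00319), where 24.5% of all genes passed. Fits to other pairs of lines called APC for SNGM minus Ishikawa-S33Y (-0.48, adjusted p = 0.0419, 8.81% of genes) and GSK3B for HEC265 minus SNGM (-0.40, adjusted p = 0.0236, 4.43%). They called 0 members for Ishikawa-S33Y (0.411%), SNGM (0.147%) and HEC265 (2.22%) minus Ishikawa. In the fit to all lines HEC265 minus Ishikawa-S33Y passed for 0 members (5.66%). The other pairs of lines, SNGM against Ishikawa (3.66%), HEC265 against Ishikawa (2.56%), SNGM against Ishikawa-S33Y (9.83%) and HEC265 against SNGM (2.03%), also gave 0, so that 0 of 60 tests passed and 3 had an unadjusted p under 0.05.

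Paclitaxel alone moved no member past the threshold in any line. The count was 0 of 40 by limma, with 2 at an unadjusted p under 0.05, and 0 by limma voom, and over all tested genes 0.00588% passed in HEC265, 0.0176% in SNGM, 0% in Ishikawa-S33Y and 0.0118% in Ishikawa. Member estimates lay between -0.41 (TCF7L2 in Ishikawa) and 0.31 (APC in Ishikawa), the line whose paclitaxel duplicates differed most. The combination against SM08502 alone also gave 0 of 40 calls by limma, 0 at an unadjusted p under 0.05 and 0 by limma voom, with estimates from -0.59 to 0.17 and 0.00588%, 0.253%, 0.129% and 0% of all genes passing in the same order of lines. SM08502 and the combination share their vehicle libraries, so their effects are given side by side and not as independent results.

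**Figure D5:**
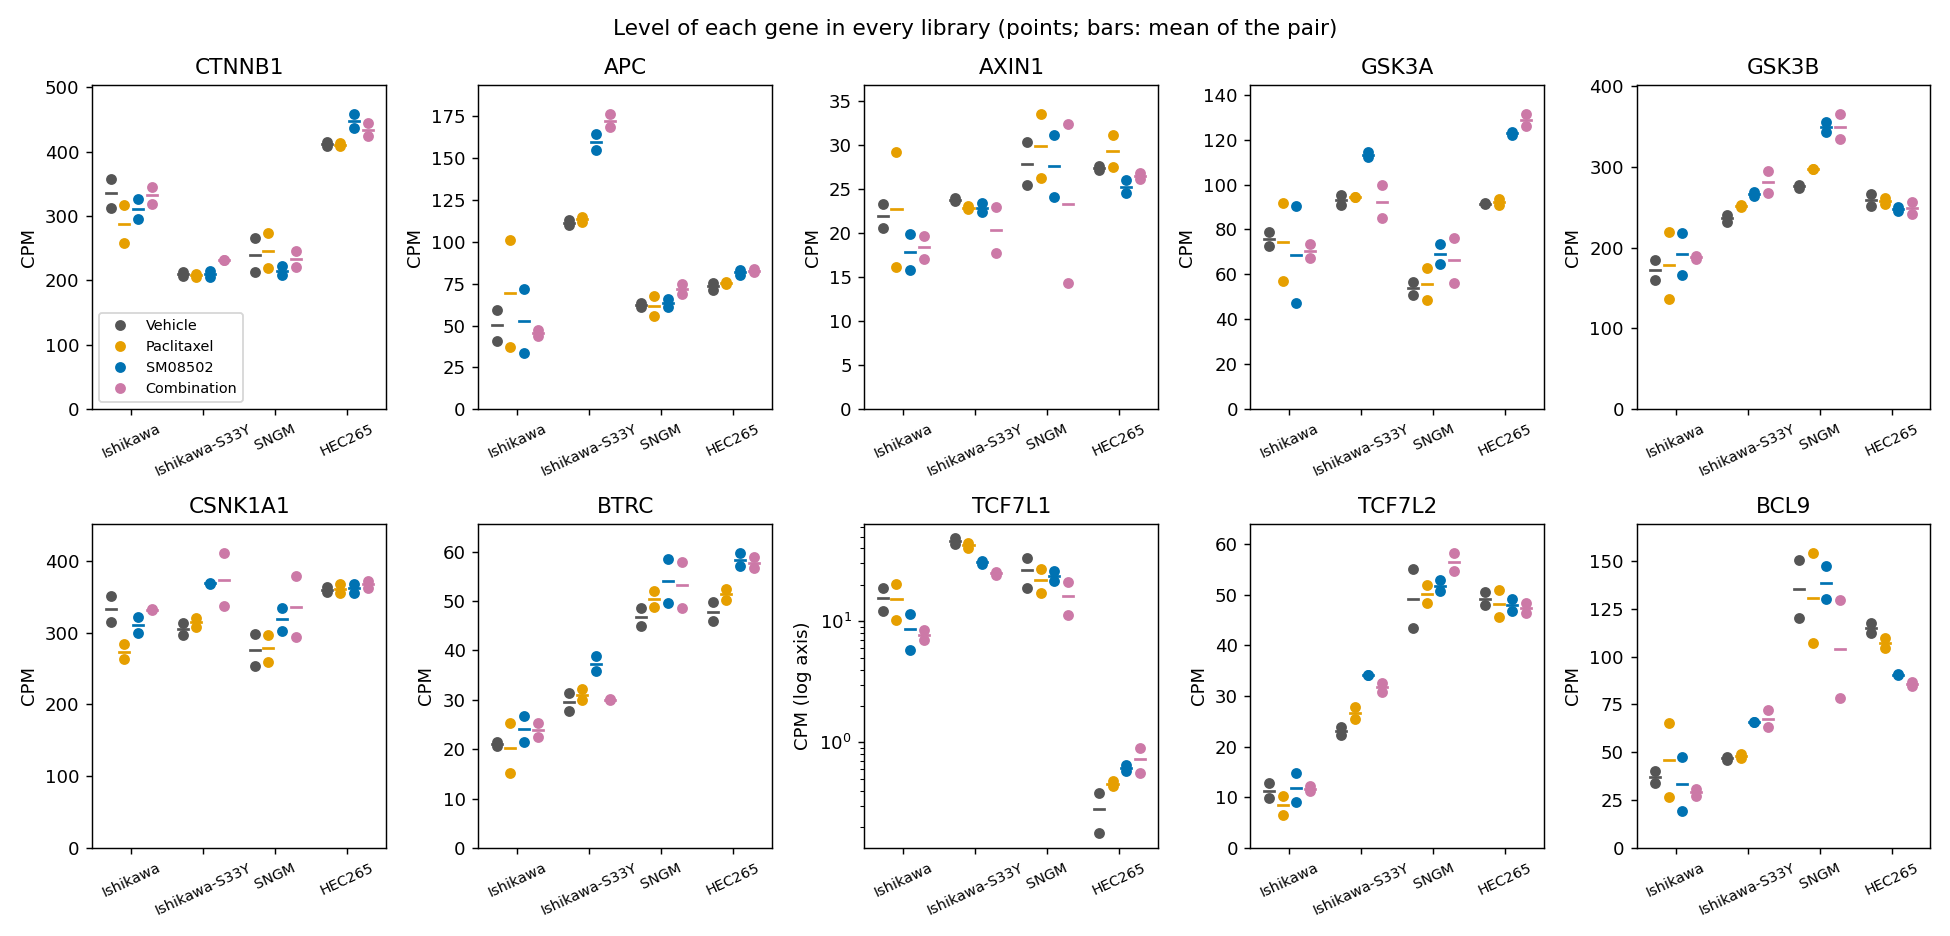
CPM of each of the 10 genes in all 32 libraries by line and treatment; points are libraries and bars the mean of each duplicate, with the vertical axis from 0 except for TCF7L1, which is on a log axis. CTNNB1 in Ishikawa-S33Y stays at 205 to 232 CPM under every treatment, APC there separates into libraries without SM08502 (up to 115 CPM) and with it (155 CPM and above), and TCF7L1 in HEC265 lies below 1 CPM throughout.

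The remaining parts of the pathway were read from lists of 20 other destruction complex genes, 20 other nuclear partners and 8 adherens junction partners of beta-catenin, all of which passed the filter. Between Ishikawa-S33Y and Ishikawa on vehicle 5 destruction complex genes were higher and 4 lower, 8 nuclear partners higher and 6 lower, and 0 junction partners higher and 2 lower, with medians of 0.07, 0.29 and 0.04. Of all tested genes 20% were higher and 28.2% lower, 48.3% in total, and the median was -0.05. The 3 largest rises were those of SMARCA4, the SWI/SNF ATPase (60.6 to 189 CPM, 1.68, SE 0.48, adjusted p = 0.00628), BCL9L, the paralogue of BCL9 (67.3 to 193 CPM, 1.56, adjusted p = 0.0129), and AMER1, a partner of APC (3.91 to 13.1 CPM, 1.54, adjusted p = 6.80e-06). The 3 largest falls were those of SKP1, the adaptor of SCF ligases (504 to 234 CPM, -1.11, adjusted p = 9.79e-07), LEF1 (7.50 to 3.10 CPM, -1.05, adjusted p = 3.76e-04) and CTNNA2, an alpha-catenin (3.68 to 1.38 CPM, -0.99, adjusted p = 9.12e-04). The length score differs between the lines as given above, and its part in these list genes was not tested.

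AXIN2, a destruction complex scaffold that is itself a standard beta-catenin target, was 144 and 145 CPM on vehicle in HEC265, 31.7 and 28.8 in SNGM, 23.7 and 21.7 in Ishikawa-S33Y and 8.14 and 7.52 in Ishikawa. All mutated lines were above Ishikawa without overlap, HEC265 by 4.04 (SE 0.18, adjusted p = 1.02e-14), SNGM by 1.82 (adjusted p = 7.42e-09) and Ishikawa-S33Y by 1.42 (adjusted p = 1.22e-06). This order of lines is not that of CTNNB1. With SM08502, AXIN2 fell in Ishikawa (5.49 and 3.53 CPM, -0.70, SE 0.18, adjusted p = 0.00991) and differed without passing by -0.13 in HEC265, 0.21 in SNGM and -0.24 in Ishikawa-S33Y. The Ishikawa call is from the fit to all lines and rests on their shared spread.

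For SM08502, 5 of the 20 destruction complex genes, 4 of the 20 nuclear partners and 3 of the 8 junction partners passed in at least 1 line, as did 42.1% of all tested genes. CDH1 and TLE2 were the list genes called the same way in at least 3 lines, a rule that 5.7% of all tested genes met. CDH1, the E-cadherin that holds beta-catenin at the membrane, was 248 and 271 CPM on vehicle and 193 and 119 with SM08502 in Ishikawa, and the same libraries were 264 and 277 against 167 and 152 in Ishikawa-S33Y. In SNGM CDH1 was 202 and 182 against 173 and 198, and in HEC265 565 and 574 against 342 and 361. CDH1 fell by 0.77, 0.76 and 0.70 on the log2 scale in Ishikawa, Ishikawa-S33Y and HEC265 (SE 0.21, adjusted p = 0.0155, 0.00877 and 0.0269), and SNGM, whose duplicates overlap, differed by -0.05. TLE2, a Groucho corepressor bound by TCF factors, fell by 0.92, 0.60 and 0.88 in the same 3 lines (SE 0.20, adjusted p = 0.00349, 0.0272 and 0.00440), and differed by -0.16 in SNGM. LEF1, another factor of the TCF family, fell in Ishikawa (6.78 and 8.21 to 4.74 and 2.92 CPM, -0.84, SE 0.22, adjusted p = 0.0118) and not past the threshold elsewhere. These calls are all from the fit to all lines, and those in Ishikawa rest on the shared spread.

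The genes whose pattern over the 16 group means was most like that of CTNNB1 were CACYBP (Pearson r = 0.99), TNFSF13 (0.98) and ALDH9A1 (0.98), out of 10422 genes with a mean log2(CPM + 1) of at least 3. The 16 means are 4 lines under 4 treatments and differ mostly by line, so the coefficients describe a shared order of lines.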

How the data were processed

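RNA of 4 cell lines under 4 treatments, 2 libraries per group, was sequenced after ribosomal RNA depletion. The authors deposited log10(CPM + 1) values for 35238 genes in 32 libraries, per the labels and the values. GRCh38, STAR, kallisto and bcl2fastq are named, without versions or roles, per the submitters' processing notes. Back-transformed values sum to 1000000 CPM per library, and all of them came out as whole reads within 0.01 of a read, so depth and counts were recovered from the deposited values (4366 genes were at 0 throughout).

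The values were converted to log2(CPM + 1), pseudocount 1, and fitted with limma 3.58.1 in R 4.3.3. The model had 16 group means, an intensity trend and 16 residual degrees of freedom, over 17011 genes with CPM above 1 in at least 2 libraries. Tests were two-sided with Benjamini-Hochberg adjustment over all genes within each of 33 contrasts, at 0.05. The design had foreseen a log scale of another base, and the test was kept. The procedure was tested on simulated data for SM08502 in Ishikawa-S33Y, with the same spread set for all genes and libraries. That run could not show how the shared fit behaves when the spread differs between lines. Alternatives were other filters, pseudocounts and scalings, no trend, fits to the compared lines alone, voom on recovered reads, the replicate number as a block, the length score as a covariate, and leaving out single libraries or both shallow ones.

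All members were named. From the pathway lists AXIN2, LEF1 and CDH1 were named always, with genes called for SM08502 in 1 direction in at least 3 lines, the 3 largest called differences each way between Ishikawa-S33Y and Ishikawa, and the 3 genes most like CTNNB1. Members and lists were chosen with earlier results of these data known.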

Additional observations from a re-analysis of the deposited data

Results flagged for a closer look

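Among the members and the named list genes, AXIN2 and LEF1 had SM08502 effects that differed between lines by the test of the difference itself (limma, adjusted over all genes). Of the list genes not named, 1 of 8 junction partners passed for Ishikawa-S33Y minus Ishikawa (background 2.43%) and 1 of 20 nuclear partners for HEC265 minus Ishikawa (2.56%). For HEC265 minus Ishikawa-S33Y 1 of 8 and 1 of 20 passed (5.66%), and for HEC265 minus SNGM 1 of 20 nuclear partners (2.03%). For AXIN2 the effect in SNGM minus that in Ishikawa was 0.91 on the log2 scale (SE 0.25, adjusted p = 0.0433), where 3.66% of all tested genes passed; AXIN2 was 31.7 and 28.8 CPM on vehicle in SNGM with a difference of 0.21, and fell by 0.70 in Ishikawa. The test over all 4 lines did not pass for AXIN2 (adjusted p = 0.0777). The flagged tests of AXIN2 and LEF1 used the spread shared by all lines. In a fit to SNGM and Ishikawa alone 0.147% of all genes passed for this difference, and the AXIN2 value there is not given.

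For LEF1 the test that the effects in the 4 lines are equal gave an adjusted p of 0.0447, where 12.4% of all tested genes passed. LEF1 differed from vehicle by -0.84 in Ishikawa, -0.49 in HEC265, 0.18 in Ishikawa-S33Y and 0.20 in SNGM. In Ishikawa it was 6.78 and 8.21 CPM on vehicle and 4.74 and 2.92 with SM08502, against 10.8 and 10.1 and then 11.9 and 12.2 in SNGM.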

How the results depend on the processing

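Leaving out 1 library at a time, the number of members called ranged from 3 to 6 for Ishikawa-S33Y against Ishikawa (3 without replicate 1 of the Ishikawa vehicle) and from 28 to 37 of 60 over the pairs of lines. For SM08502 it ranged from 0 to 4 of 40: 0 without any vehicle or SM08502 library of Ishikawa-S33Y, 4 without replicate 1 of SM08502 in Ishikawa, 3 without either paclitaxel library of Ishikawa and 2 without either combination library of SNGM. For paclitaxel it ranged from 0 to 1 (1 without replicate 1 in Ishikawa), for the combination from 0 to 7 (7 without either paclitaxel library of Ishikawa or replicate 1 of the SNGM combination), for the combination against SM08502 from 0 to 2 (2 without replicate 1 of the SNGM combination), for the mean SM08502 effect from 1 to 4 (4 without replicate 2 of SM08502 in Ishikawa), for the test over 4 lines from 0 to 1, and for Ishikawa-S33Y minus Ishikawa from 0 to 3, the last 2 highest without replicate 1 of SM08502 in Ishikawa. A group left with 1 library was assumed to vary like the others. The counts in this section are of members only. The share of all genes called under each alternative is not given beside them, so their changes do not set the members apart.

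With the length score as a covariate the counts were 3 for Ishikawa-S33Y against Ishikawa, 14 for SM08502, 1 for paclitaxel, 16 for the combination, 6 for the mean SM08502 effect, 4 for the test over 4 lines and 3 for Ishikawa-S33Y minus Ishikawa. Whether calls over all genes rose alike with this covariate is not given here. The same covariate reversed GSK3B against Ishikawa (-0.021 in Ishikawa-S33Y, -0.17 in SNGM, -0.090 in HEC265) and BCL9 (-0.32 in SNGM, -0.11 in HEC265); the cause was not tested. For SM08502 the count was 3 with quantile normalization, 13 in fits to the compared lines alone, 2 with voom and median-of-ratios factors and 2 without the shallow libraries. For the combination it was 0 without a filter, 1 with a pseudocount of 0.1, 4 with quantile normalization, 1 without the trend, 12 in fits to the compared lines alone and 1 without the shallow libraries, and the mean SM08502 effect had 2 calls with quantile normalization. Fits to single lines give no mean over lines and no test over 4 lines. HEC265 held at most 19 reads of TCF7L1 per library, which limits any difference there.

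The replicate numbers did not pair the samples: the correlation of replicate differences between treatments ran from -0.45 to 0.70. With the replicate block the combination gave 0 calls, TCF7L1 being at adjusted p = 0.0701 in Ishikawa and 0.0564 in Ishikawa-S33Y. The other counts were 6, 33, 1, 0, 0, 1, 0 and 0 in the order above, as without it.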
